A study of Mus musculus with 15 samples.

Results

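Transcripts of 10 C-type lectin receptor genes were followed in cultured mouse macrophages with and without STAT5. The members are Clec4a1, Clec4a2, Clec4a3, Clec4b1, Clec4d, Clec4e and Clec4n of the Clec4 cluster on chromosome 6, together with Clec5a, Clec7a and Clec12a on the same chromosome, and they make up 10 of the 55385 genes of the count table. They were selected on gene family and on their counts across these 6 groups of libraries, so a count of members describes a list and does not stand as independent evidence. RNA came from bone marrow-derived macrophages (BMDMs) of BALB/c mice aged 6 wk. The 2 control mice (numbers 112 and 113) were STAT5 fl/fl, with floxed Stat5 alleles. The 3 STAT5 cKO mice (114, 115 and 116) carried the same floxed alleles and Cre driven by the Csf1r promoter, which is active in the myeloid lineage and in some lymphocytes. Cells of each mouse were held for 2 h in serum-free DMEM, in DMEM with 20 ng/mL recombinant mouse GM-CSF (rmGM-CSF), or in medium conditioned by 4T1 mouse mammary carcinoma cells (4T1 CM), which gave 15 libraries in 6 groups. The methods of the study state that quality control took out another control replicate, which was not analysed here.

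C-type lectin receptors are membrane proteins with which myeloid cells recognize sugars and lipids of microbes and dying cells. Several of them signal through a tyrosine-based motif, either in an adaptor (FcRgamma or DAP12) or in their own tail, to the kinase SYK and on to the CARD9, BCL10 and MALT1 complex and NF-kB. Others carry an inhibitory motif that recruits phosphatases such as SHP-1. STAT5 is the transcription factor that the GM-CSF receptor activates through JAK2.

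The 7 genes of the Clec4 cluster lie between positions 122921848 and 123289870 of chromosome 6 (GRCm38), over 368 kb. Clec12a and Clec7a lie further along the chromosome, at 129342691 to 129365303 and 129461591 to 129472779, and Clec5a lies apart at 40574894 to 40585821. The 250 bases upstream of the RefSeq start site (GRCm38.p6) were read for 9 members, all but Clec4n. Those of Clec4e and Clec5a, which were higher in STAT5 cKO cells under every treatment, and of Clec7a, which was lower under rmGM-CSF and 4T1 CM, are printed 5′ to 3′ in the direction of transcription. Capitals mark matches on either strand to GAGGAA, the core recognized by PU.1 and other ETS factors, and in Clec4e also to TTGCNNAA, a C/EBP sequence.
Clec4e (chr6:123289872-123290121, minus strand): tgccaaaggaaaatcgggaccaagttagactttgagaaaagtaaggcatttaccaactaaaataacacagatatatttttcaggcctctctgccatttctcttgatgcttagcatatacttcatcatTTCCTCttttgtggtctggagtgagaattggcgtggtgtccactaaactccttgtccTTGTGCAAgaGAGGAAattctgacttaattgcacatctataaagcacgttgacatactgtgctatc
Clec5a (chr6:40585806-40586055, minus strand): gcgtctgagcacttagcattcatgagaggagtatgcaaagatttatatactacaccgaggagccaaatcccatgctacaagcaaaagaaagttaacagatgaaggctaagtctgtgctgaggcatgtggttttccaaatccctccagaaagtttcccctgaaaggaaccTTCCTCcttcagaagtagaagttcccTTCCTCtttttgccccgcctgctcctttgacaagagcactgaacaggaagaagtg
Clec7a (chr6:129472780-129473029, minus strand): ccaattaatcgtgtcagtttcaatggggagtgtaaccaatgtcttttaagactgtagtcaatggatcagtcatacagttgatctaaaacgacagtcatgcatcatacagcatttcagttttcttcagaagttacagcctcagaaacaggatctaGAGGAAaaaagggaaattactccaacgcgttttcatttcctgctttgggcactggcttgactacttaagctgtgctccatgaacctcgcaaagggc
GAGGAA was found in 7 of the 9 windows and in 23.1% of the windows of 27025 genes. Clec4e and Clec5a each held 2 matches, at -123 and -56 and at -81 and -55 from the start site, and Clec7a held 1, at -96. TTGCNNAA was found upstream of Clec4e, at -66, and of Clec12a, at -140, against 9.55% of all windows. The STAT sequence TTCNNNGAA was found in 1 window, that of Clec4a2 at -42, against 7.18% of all windows. The AP-1 sequence TGANTCA was found in 1 window, that of Clec12a at -213, against 6.87% of all windows. The RefSeq start sites used for Clec4a2 and Clec12a lay 16262 and 7553 bases from the gene start in the count table. Those of the other windows lay within 16 bases of it. All these matches describe letters in the reference and were not tested as binding sites.

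Library totals ranged from 16016736 to 22883108 counts. Stat5a lay between 29.0 and 45 normalized CPM (counts scaled to library size) and Stat5b between 60.8 and 77.7 in the STAT5 fl/fl libraries, and both lay at or below 0.189 in every STAT5 cKO library. Macrophage genes were abundant in all libraries. The summed level of 8 macrophage markers was 24626 to 29832 CPM in STAT5 fl/fl and 31111 to 46593 CPM in STAT5 cKO libraries, without overlap. The median log2 fold change of the 8 in STAT5 cKO against STAT5 fl/fl was 0.10 in DMEM, -0.05 under rmGM-CSF and -0.07 under 4T1 CM. The higher sum thus does not describe the typical marker, and its part in the lectin differences was not tested. The sum of 8 neutrophil markers stayed at or below 2.5 CPM, with 5 of the 8 at or under 3 counts in every library. The sum of 4 fibroblast markers did not exceed 14.5 CPM, and under each treatment that of the STAT5 cKO libraries lay above that of the controls (13.0 to 14.5 against 7.92 to 8.82 CPM in DMEM). The sum of 6 dendritic cell markers was higher under rmGM-CSF than in DMEM, at 2.41 to 4.86 against 1.31 to 1.5 CPM in STAT5 fl/fl and 2.99 to 3.73 against 1.61 to 2.31 CPM in STAT5 cKO libraries, and under 4T1 CM it was 1.5 to 1.65 and 2.13 to 3.12 CPM. The sum of 5 epithelial markers, most of it Cdh1 (E-cadherin) where it passed 1 CPM, was at most 0.136 CPM in DMEM. It was 1.18 to 1.43 CPM in STAT5 fl/fl libraries and at most 0.049 CPM in STAT5 cKO libraries under rmGM-CSF, and 3.16 to 4.33 and 1.23 to 2.17 CPM under 4T1 CM. The part of these markers in the lectin results was not tested. The T, B and NK cell markers summed to at most 0.318 CPM and the mast cell and basophil markers to at most 0.103 CPM. In bulk RNA, fewer cells of a type and less RNA per cell cannot be told apart. The 4T1 CM library of STAT5 cKO mouse 115 stood apart from the others of its group (chi-square per degree of freedom over all genes 16.9 and 23.2 with mice 114 and 116, which differed from each other by 11.9). The DMEM library of STAT5 cKO mouse 114 stood apart as well (11.04 and 14.5 with mice 115 and 116, which differed from each other by 5.9). Called values of members that lost their call without either library are named as such. Of the values that kept it, only some are given with and without the library.

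All 10 members passed the filter on low counts, with 21 counts or more for Clec4b1, the scarcest, in each library. Per kilobase of exon, Clec4d was the most abundant member in STAT5 fl/fl cells in DMEM, at 192 ± 0.678 normalized RPKM (SD, n = 2). Clec7a (163 ± 9.26) and Clec12a (102 ± 1.44) followed. Below them came Clec4a3 (35.9 ± 1.23), Clec4a1 (34.3 ± 1.57), Clec4n (18.8 ± 2.06), Clec4a2 (9.44 ± 0.359), Clec4e (8.0 ± 0.485), Clec5a (6.59 ± 0.476) and Clec4b1 (2.62 ± 0.0623), and in this order only Clec4a3 and Clec4a1 lay within their spreads of each other. The order was not the same under rmGM-CSF. In STAT5 fl/fl cells Clec7a (329 ± 33.5 RPKM) and Clec4d (294 ± 9.56) then led with overlapping spreads, and Clec4e reached 74.3 ± 6.16. In STAT5 cKO cells under rmGM-CSF, Clec4d led at 441 ± 27.1 RPKM (n = 3), Clec7a stood at 145 ± 5.09, and Clec4e (131 ± 7.33) and Clec12a (125 ± 6.69) lay within their spreads of each other.

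**Figure D1:**
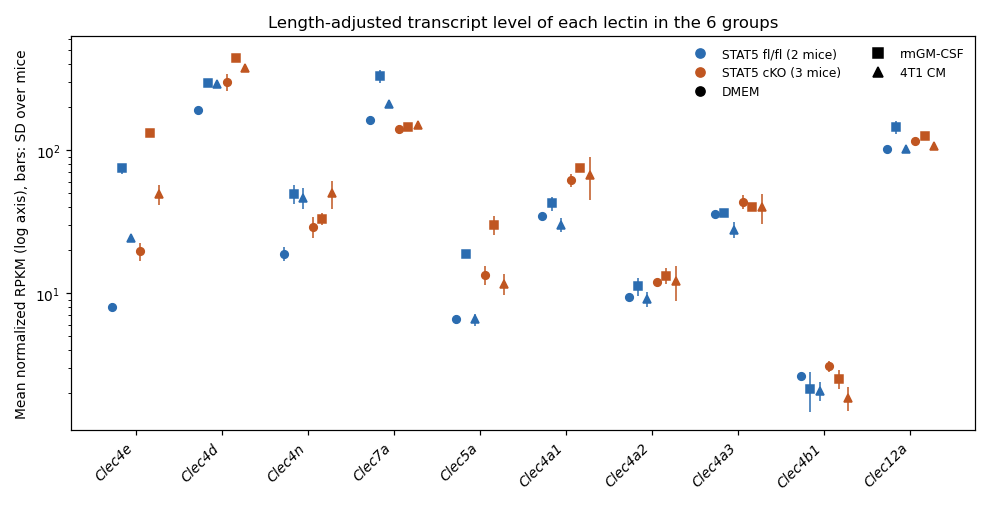
Mean normalized RPKM of each lectin (log axis, bars are SD over mice) in the 6 groups, blue for STAT5 fl/fl (n = 2) and orange for STAT5 cKO (n = 3), with circles for DMEM, squares for rmGM-CSF and triangles for 4T1 CM. Clec4d is at or near the top in every group, Clec4b1 is at the bottom, and Clec4e spans the widest range on the log axis, from 8.0 to 131 RPKM.

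Genotypes were compared within each treatment to ask which lectin transcripts differ in cells that lack STAT5. Cre came with the STAT5 cKO genotype, and Stat5a and Stat5b were already lost in DMEM. Effects of Cre, of earlier loss of STAT5 and of its absence during the 2 h cannot be told apart here. Across the whole table, edgeR's quasi-likelihood test with Benjamini-Hochberg adjustment called a gene at an adjusted p under 0.01. In DMEM it called 0.938% of 13005 genes higher and 1.55% lower in STAT5 cKO cells and, among the members, Clec4e, Clec4d, Clec5a and Clec4a1, all higher in STAT5 cKO, with a median log2 fold change of 0.49 over the members and 0.0013 over all genes. Under rmGM-CSF (3.57% of genes called higher and 6.24% lower) the same 4 members were higher and Clec7a was lower, with medians of 0.24 and 0.00048. Under 4T1 CM (4.13% higher and 3.57% lower) the calls were again these 4 higher and Clec7a lower, with medians of 0.41 and 0.0098. The members thus split by receptor, with Clec4e, Clec4d, Clec5a and Clec4a1 on the higher side, Clec7a on the lower side, and Clec4n, Clec4a2, Clec4a3, Clec4b1 and Clec12a not called in any of the 3 comparisons.

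**Figure D2:**
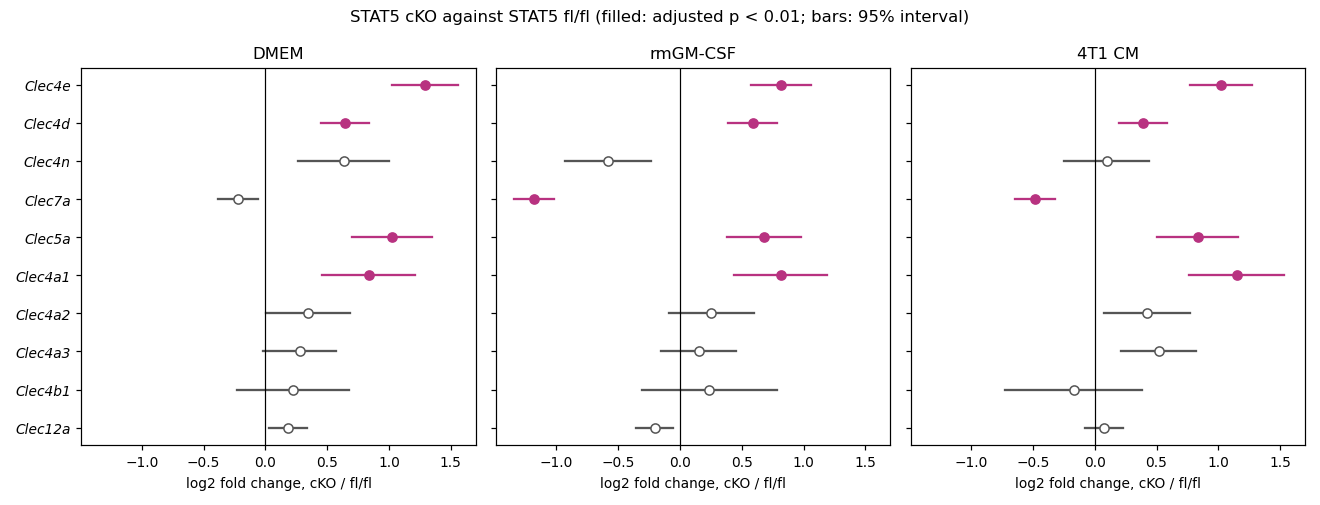
Log2 fold change of each lectin in STAT5 cKO (3 mice) against STAT5 fl/fl (2 mice) macrophages in DMEM, rmGM-CSF and 4T1 CM, with 95% intervals from the edgeR fit and filled points for an adjusted p under 0.01. Clec4e, Clec4d, Clec5a and Clec4a1 lie above 0 in the 3 panels, and Clec7a reaches -1.18 under rmGM-CSF.

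Treatments were compared within each genotype to ask how the receptors respond to GM-CSF and to tumor cell medium. Against DMEM, rmGM-CSF raised 6 members in STAT5 fl/fl cells (15.9% of genes higher and 12.6% lower), namely Clec4e, Clec5a, Clec4n, Clec7a, Clec4d and Clec12a, and 3 in STAT5 cKO cells (13.3% of genes higher and 10.2% lower), namely Clec4e, Clec5a and Clec4d. 4T1 CM raised Clec4e, Clec4n, Clec4d and Clec7a in STAT5 fl/fl cells (19.2% of genes higher and 18.2% lower). In STAT5 cKO cells (19.3% of genes higher and 18.4% lower) it raised Clec4e, Clec4n and Clec4d and lowered Clec4b1. Set directly against rmGM-CSF, 4T1 CM gave lower Clec4e, Clec5a, Clec7a and Clec12a in STAT5 fl/fl cells (13.8% of genes higher and 16.7% lower), and lower Clec4e, Clec5a and Clec12a and higher Clec4n in STAT5 cKO cells (16.6% of genes higher and 17.5% lower). These treatment comparisons share their DMEM or rmGM-CSF libraries. The response to rmGM-CSF was smaller in STAT5 cKO than in control cells for Clec7a and Clec4n (0.884% of genes higher and 2.22% lower), the response to 4T1 CM differed for no member (0.73% of genes higher and 0.538% lower, with an unadjusted p under 0.05 for 2 members, Clec7a and Clec4n, and 0 called by DESeq2), and the difference of 4T1 CM from rmGM-CSF was higher in STAT5 cKO cells for Clec7a (1.32% of genes higher and 0.146% lower).

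**Figure D3:**
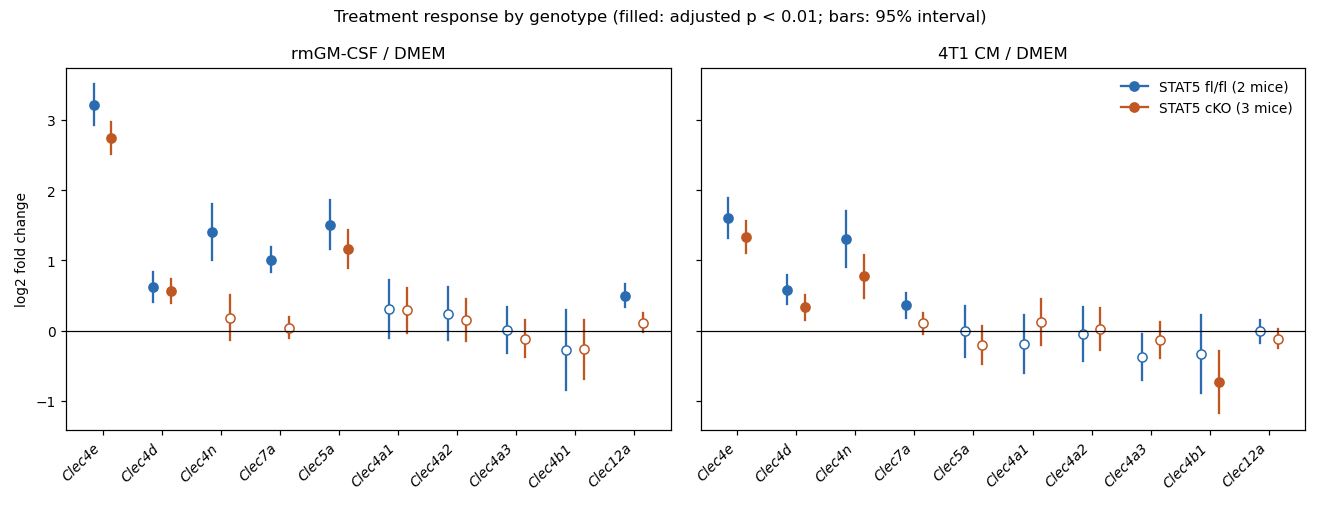
Log2 fold change of each lectin after rmGM-CSF (left) or 4T1 CM (right) against DMEM in STAT5 fl/fl (blue, 2 mice) and STAT5 cKO (orange, 3 mice) macrophages, with 95% intervals and filled points for an adjusted p under 0.01. Clec4e has the largest response of the 10 to rmGM-CSF in both genotypes, and Clec4n and Clec7a respond less to rmGM-CSF in STAT5 cKO than in control cells.

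Clec4e encodes Mincle, an FcRgamma-coupled receptor for mycobacterial cord factor and other glycolipids. In DMEM its level was 38.0 and 41.4 CPM in the STAT5 fl/fl libraries and 85.4, 94.0 and 112 CPM in the STAT5 cKO libraries. Under rmGM-CSF it was 347 and 391 CPM against 615, 688 and 646 CPM. Under 4T1 CM it was 120.0 and 121 CPM against 202, 277 and 254 CPM. The genotypes did not overlap under any treatment, and within each genotype the order was DMEM, 4T1 CM, rmGM-CSF in every mouse. In DMEM the genotypes did not overlap for any member, called or not, so the lack of overlap does not set Clec4e apart there. Members that were not called also lacked overlap under rmGM-CSF (Clec4n, Clec4a3 and Clec12a) and under 4T1 CM (Clec4a2 and Clec4a3). The share of all genes without overlap was not computed, so for every member the lack of overlap only describes the libraries. STAT5 cKO cells held 2.45-fold more transcript in DMEM (log2 fold change 1.29 ± 0.13 SE, edgeR adjusted p = 1.5e-05), 1.76-fold more under rmGM-CSF (0.82 ± 0.12, adjusted p = 7.2e-05) and 2.03-fold more under 4T1 CM (1.02 ± 0.12, adjusted p = 1.7e-05). rmGM-CSF raised Clec4e 9.29-fold in STAT5 fl/fl (log2 3.21 ± 0.14) and 6.69-fold in STAT5 cKO cells (2.74 ± 0.11), and the difference between these responses did not pass the threshold (-0.47, 95% interval -0.83 to -0.12, adjusted p = 0.147). 4T1 CM raised it 3.03-fold and 2.52-fold (log2 1.6 ± 0.14 and 1.33 ± 0.10). Every call for Clec4e held with any mouse left out, and without the DMEM library of mouse 114 the DMEM difference was 1.37 (adjusted p = 1.8e-05).

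Clec4d encodes MCL, also called Dectin-3, which forms a complex with Mincle and is encoded next to it. In DMEM the STAT5 fl/fl libraries held 307 and 305 CPM and the STAT5 cKO libraries 418, 467 and 551 CPM. Under rmGM-CSF the values were 459 and 481 against 657, 741 and 719 CPM, and under 4T1 CM 468 and 451 against 563, 644 and 599 CPM. The genotypes again did not overlap. The genotype difference was smaller than for Clec4e, with log2 fold changes of 0.65 ± 0.09 in DMEM (edgeR adjusted p = 0.00061), 0.59 ± 0.09 under rmGM-CSF (adjusted p = 0.00022) and 0.39 ± 0.09 under 4T1 CM (adjusted p = 0.0082). In STAT5 fl/fl cells rmGM-CSF raised Clec4d 1.53-fold and 4T1 CM 1.5-fold (4T1 CM against rmGM-CSF -0.03, 95% interval -0.24 to 0.18). In STAT5 cKO cells rmGM-CSF raised it 1.47-fold and 4T1 CM 1.26-fold, and the difference between these (-0.23 ± 0.08) had an adjusted p of 0.0284, or 0.00556 with the mouse as a block. The DMEM difference between genotypes was 0.73 (adjusted p = 0.00013) without the DMEM library of mouse 114, and it lost its call without mouse 112 (adjusted p = 0.0211) or 113 (0.0326), that under rmGM-CSF without 112 (0.0146), and that under 4T1 CM without 112 (0.0572), 113 (0.129) or 115 (0.0428), or without the 4T1 CM library of 115 alone (0.0249). The rise with rmGM-CSF in STAT5 fl/fl cells lost its call without 113 (0.0172), the rise with 4T1 CM there without 112 (0.0131), and the rise with 4T1 CM in STAT5 cKO cells without 115 (0.0523), its 4T1 CM library (0.0139) or the DMEM library of 114 (0.0172).

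Clec7a encodes Dectin-1, the beta-glucan receptor, which signals to SYK through a motif in its own tail. In DMEM its level was 448 and 414 CPM in STAT5 fl/fl and 392, 341 and 378 CPM in STAT5 cKO libraries. Under rmGM-CSF the STAT5 fl/fl libraries rose to 804 and 929 CPM while the STAT5 cKO libraries lay at 397, 371 and 377 CPM. Under 4T1 CM the values were 537 and 573 against 419, 373 and 401 CPM. The STAT5 cKO libraries thus stayed within 341 to 419 CPM under the 3 treatments. rmGM-CSF raised Clec7a 2.01-fold in STAT5 fl/fl cells (log2 1.01 ± 0.09, edgeR adjusted p = 4.6e-08) and the value in STAT5 cKO cells was 0.04 (95% interval -0.10 to 0.19). The difference between the responses was -0.96 ± 0.11 (interaction term, adjusted p = 2.2e-05), and in per-mouse ratios the STAT5 fl/fl mice lay at 1.79 and 2.25 and the STAT5 cKO mice at 1.01, 1.09 and 1.0. 4T1 CM raised Clec7a 1.29-fold in STAT5 fl/fl cells (0.36 ± 0.08, adjusted p = 0.0018), and the value in STAT5 cKO cells was 0.10 (95% interval -0.04 to 0.25), but the difference between these did not pass the threshold (-0.26, adjusted p = 0.273). Between genotypes, Clec7a was 2.27-fold lower in STAT5 cKO cells under rmGM-CSF (-1.18 ± 0.08, adjusted p = 5.3e-09) and 1.40-fold lower under 4T1 CM (-0.48 ± 0.08, adjusted p = 0.00036), and in DMEM the difference of -0.22 ± 0.08 had an adjusted p of 0.0997. The comparison of 4T1 CM with rmGM-CSF also differed between genotypes (0.70 ± 0.11, adjusted p = 0.00087). Without mouse 113 the rise with 4T1 CM in STAT5 fl/fl cells (adjusted p = 0.0961), the genotype difference under 4T1 CM (0.0109) and the last interaction (0.0279) lost their calls, and the last was also lost without 116 (0.0107).

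Clec4n encodes Dectin-2, an FcRgamma-coupled receptor for fungal mannans, and is the neighbor of Clec4d. In DMEM its level was 24.6 and 28.7 CPM in STAT5 fl/fl and 35.5, 39.7 and 48.8 CPM in STAT5 cKO libraries, so the STAT5 cKO libraries were the higher. Under rmGM-CSF the order turned, with 62.6 and 78.2 CPM in STAT5 fl/fl and 42.0, 49.8 and 49.0 CPM in STAT5 cKO libraries. Under 4T1 CM the genotypes overlapped, at 58.2 and 74.0 CPM against 56.0, 87.1 and 68.9 CPM. The genotype differences in DMEM (0.63 ± 0.18, edgeR adjusted p = 0.039) and under rmGM-CSF (-0.59 ± 0.16, adjusted p = 0.0207) did not pass the threshold of 0.01, and both passed it when no filter on low counts was applied (adjusted p = 0.00646 and 0.00287), the latter also when only the libraries compared were fitted (0.00051). The response to rmGM-CSF did differ between genotypes. It was 2.64-fold in STAT5 fl/fl cells (log2 1.40 ± 0.19) and 1.13-fold in STAT5 cKO cells (0.18, 95% interval -0.14 to 0.50), a difference of -1.22 ± 0.24 (adjusted p = 0.00429). That call was lost without mouse 112 (adjusted p = 0.0336), 113 (0.0724) or 116 (0.0247), with values from -1.26 to -1.11, and it held without the DMEM library of 114 (-1.32, adjusted p = 0.00319). 4T1 CM raised Clec4n in both genotypes, 2.47-fold in STAT5 fl/fl (1.31 ± 0.19) and 1.71-fold in STAT5 cKO cells (0.77 ± 0.15), and the latter was 0.56 (adjusted p = 0.0109) without mouse 115. In STAT5 cKO cells Clec4n was 1.51-fold higher under 4T1 CM than under rmGM-CSF (0.59 ± 0.15, adjusted p = 0.00343), a call lost without mouse 115 (0.0387), without its 4T1 CM library (0.0223) or without 116 (0.0116). The genotypes' difference in that comparison was 0.68 ± 0.23 with an adjusted p of 0.167, and 0.67 with an adjusted p of 0.0082 with the mouse as a block.

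Clec5a encodes MDL-1, a DAP12-coupled receptor known from its binding of dengue virus. In DMEM its level was 26.6 and 24.0 CPM in STAT5 fl/fl and 43.5, 51.4 and 59.4 CPM in STAT5 cKO libraries. Under rmGM-CSF the values were 69.4 and 74.4 against 96.5, 129.9 and 119 CPM. Under 4T1 CM they were 26.9 and 23.3 against 36.4, 47.7 and 50.1 CPM, close to those in DMEM. The STAT5 cKO libraries lay above the STAT5 fl/fl libraries under each treatment, and the libraries under rmGM-CSF above all others of their genotype. The genotype difference was 1.03 ± 0.15 on the log2 scale in DMEM (2.04-fold, edgeR adjusted p = 0.00069), 0.68 ± 0.14 under rmGM-CSF (1.6-fold, adjusted p = 0.00255) and 0.83 ± 0.16 under 4T1 CM (1.78-fold, adjusted p = 0.00138). rmGM-CSF raised Clec5a 2.84-fold in STAT5 fl/fl and 2.24-fold in STAT5 cKO cells (log2 1.51 ± 0.16 and 1.16 ± 0.13), and the values for 4T1 CM were -0.01 (95% interval -0.37 to 0.36) and -0.20 (-0.47 to 0.07). Without the DMEM library of mouse 114 the difference in DMEM was 1.13 (adjusted p = 0.00046). Without mouse 112 the genotype difference had adjusted p of 0.0174, 0.0561 and 0.0154 in DMEM, rmGM-CSF and 4T1 CM, without 113 of 0.0433, 0.0384 and 0.0627, and under rmGM-CSF without 115 of 0.0184.

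Clec4a1, Clec4a2 and Clec4a3 encode receptors of the DCIR family, of which Clec4a2 (DCIR) carries an inhibitory motif. Clec4a1 was 51.8 and 55.2 CPM in STAT5 fl/fl and 106, 87.0 and 93.1 CPM in STAT5 cKO libraries in DMEM. It was 60.8 and 71.5 against 124, 115 and 110.3 CPM under rmGM-CSF, and 43.1 and 50.8 against 80.6, 143 and 88.1 CPM under 4T1 CM. The genotypes did not overlap, and the value of 143 CPM came from mouse 115. The genotype difference was 1.78-fold in DMEM (log2 0.83 ± 0.18, edgeR adjusted p = 0.00918), 1.76-fold under rmGM-CSF (0.81 ± 0.18, adjusted p = 0.00385) and 2.22-fold under 4T1 CM (1.15 ± 0.18, adjusted p = 0.00035). Without the 4T1 CM library of mouse 115, the last was 0.85 ± 0.11 (adjusted p = 4.0e-05). edgeR called no change of Clec4a1 with treatment in either genotype, and its values under rmGM-CSF against DMEM passed the threshold when only the libraries compared were fitted (0.31 with an adjusted p of 0.00922 in STAT5 fl/fl and 0.29 with 0.00797 in STAT5 cKO). The genotype calls were lost without mouse 112 (adjusted p = 0.12, 0.0849 and 0.0196 in DMEM, rmGM-CSF and 4T1 CM) or 113 (0.107, 0.035 and 0.0101), and in DMEM also without 114 (0.0152), its DMEM library alone (0.75, adjusted p = 0.0267) or 116 (0.024).

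Clec4a2 and Clec4a3 varied less. Clec4a2 ranged from 24.4 to 35.9 CPM in STAT5 fl/fl and from 29.3 to 47.0 CPM in STAT5 cKO libraries, and Clec4a3 from 33.5 to 48.8 and from 42.3 to 66.6 CPM. The genotype means were higher in STAT5 cKO for both genes under each treatment, and edgeR called neither. The nearest to the threshold was Clec4a3 under 4T1 CM, at 33.5 and 40.0 against 42.3, 66.6 and 49.0 CPM (0.52 ± 0.14, edgeR adjusted p = 0.0223), which was called by DESeq2 (adjusted p = 0.00348), with no filter on low counts (0.00465) and without mouse 114 (0.00392). This value was 0.32 (adjusted p = 0.0688) without the 4T1 CM library of mouse 115, which held the highest Clec4a2 and Clec4a3 levels of all 15. Mouse 115 went against the other mice in its response to 4T1 CM. The ratio of 4T1 CM to DMEM for Clec4a3 was 0.687 and 0.861 in the STAT5 fl/fl mice and 0.668 and 0.821 in STAT5 cKO mice 114 and 116, and it was 1.33 in mouse 115. Without that library, 4T1 CM lowered Clec4a3 against DMEM in STAT5 cKO cells (-0.34, adjusted p = 0.00869), and lowered Clec4a1 (-0.47, adjusted p = 0.000645) and Clec4a2 (-0.38, adjusted p = 0.00814) against rmGM-CSF, where the values with it were -0.13, -0.16 and -0.13 and none passed the threshold.

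Clec4b1 encodes DCAR, an activating relative of DCIR that pairs with FcRgamma, and it was scarce, at 1.13 to 2.66 CPM (21 to 58 counts). In STAT5 cKO cells it fell from 2.66, 2.35 and 2.22 CPM in DMEM to 1.61, 1.6 and 1.13 CPM under 4T1 CM (-0.73 ± 0.21, edgeR adjusted p = 0.00788), without overlap. In STAT5 fl/fl cells the values were 2.09 and 2.02 CPM in DMEM and 1.80 and 1.44 CPM under 4T1 CM (-0.34, 95% interval -0.89 to 0.22), and the genotypes' responses were not shown to differ (adjusted p = 0.671). The call rests on few counts. It was lost without each mouse in turn, with adjusted p from 0.0102 to 0.0567, without the 4T1 CM library of mouse 115 (0.0114), without the DMEM library of 114 (0.0312), with DESeq2 (0.0247), with no filter on low counts (0.01001), and when only the libraries compared were fitted (0.0191). Clec4b1 shares 8.68% of its 50-base stretches of transcript with Clec4a2, and Clec4a2 shares 6.15% of its own with other genes of the cluster, chiefly Clec4a4, so fragments there could be counted to neither or to the wrong gene. The other 8 members shared no 50-base stretch with each other or with Clec4a4 and Clec4b2.

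Clec12a encodes MICL, an inhibitory receptor that binds uric acid crystals. In DMEM its level was 559 and 570.0 CPM in STAT5 fl/fl and 646, 608 and 664 CPM in STAT5 cKO libraries. Under rmGM-CSF it was 739.7 and 852 against 727, 692 and 653 CPM, and under 4T1 CM 544 and 576 against 615, 598 and 557 CPM. The STAT5 cKO libraries were the higher in DMEM and the lower under rmGM-CSF, and they overlapped with STAT5 fl/fl under 4T1 CM. Neither genotype difference passed the threshold (0.18 ± 0.07, edgeR adjusted p = 0.148, and -0.20 ± 0.07, adjusted p = 0.0606). rmGM-CSF raised Clec12a 1.41-fold in STAT5 fl/fl cells (0.50 ± 0.08, adjusted p = 7.7e-05), and the value in STAT5 cKO cells was 0.11 (95% interval -0.02 to 0.25). The difference between the responses was -0.39 ± 0.10 with an adjusted p of 0.0348, and of 0.00489 with DESeq2. Clec12a was lower under 4T1 CM than under rmGM-CSF in STAT5 fl/fl (-0.51 ± 0.08, adjusted p = 5.9e-05) and in STAT5 cKO cells (-0.23 ± 0.06, adjusted p = 0.00789). The latter was lost without 114 (0.0429), 115 (0.038), its 4T1 CM library (0.0135) or 116 (0.0319), and the rise with rmGM-CSF in STAT5 fl/fl without 113 (0.0143).

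**Figure D4:**
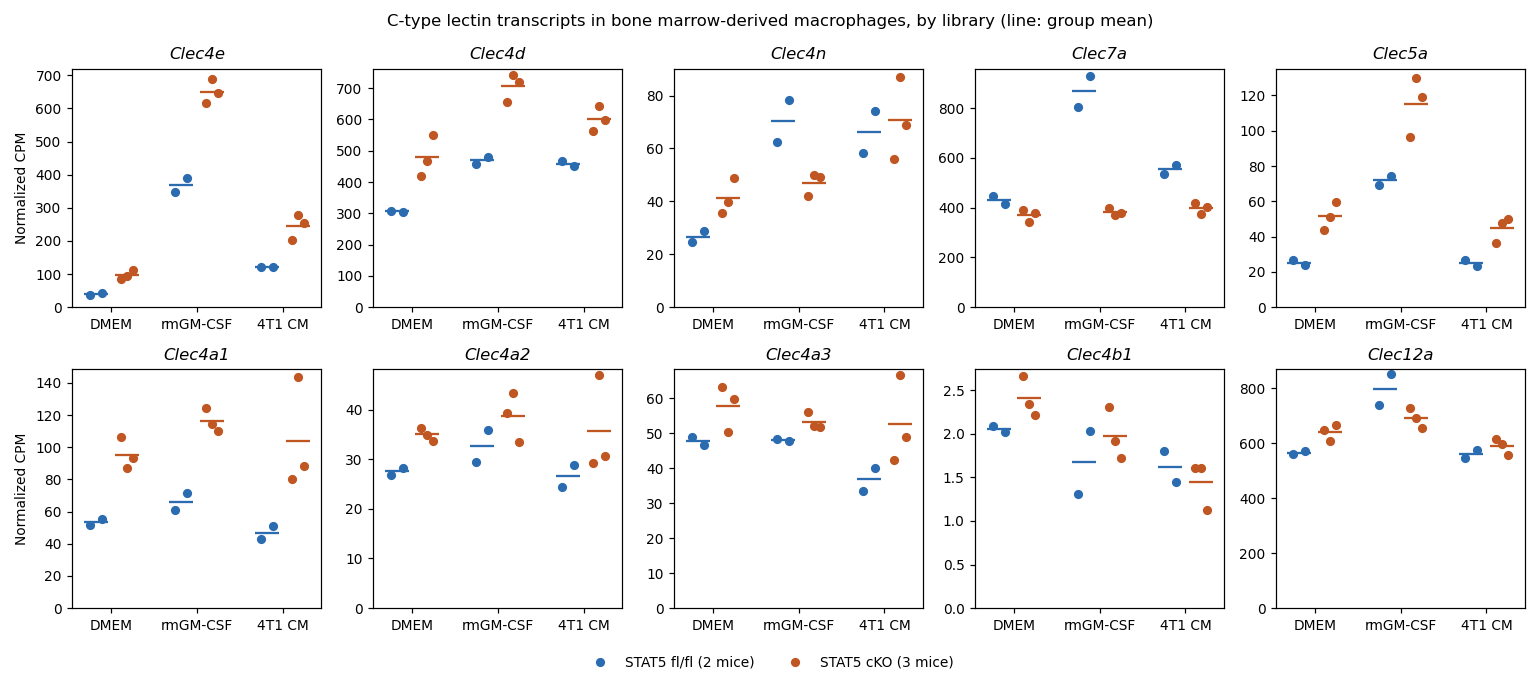
Normalized CPM of each lectin in every library, blue for STAT5 fl/fl (2 mice) and orange for STAT5 cKO (3 mice), with a line at each group mean and axes from 0. Clec4e, Clec4d, Clec5a and Clec4a1 lie higher in STAT5 cKO under each treatment, Clec7a is highest in STAT5 fl/fl under rmGM-CSF, and mouse 115 gives the highest 4T1 CM points of Clec4a1 (143 CPM), Clec4a2 and Clec4a3.

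Across the 15 libraries, Pearson's r of log2 CPM between members was highest for Clec4a1 with Clec4a2 (0.89), and it was 0.81 for Clec4a1 with Clec4a3 and 0.78 for Clec4a2 with Clec4a3. It was 0.87 for Clec4e with Clec4d, 0.85 for Clec4e with Clec5a and 0.76 for Clec4d with Clec5a. Clec7a lay apart from these, at 0.13 with Clec4e and -0.54 with Clec4a1. These correlations are given as descriptions, since libraries share treatments, mice and depth. Of all other genes tested, those most like Clec4e were Yrdc (0.983), Traf1 (0.982) and Uso1 (0.982), and those most like Clec7a were Slc35b3 (0.977), Ccl6 (0.968) and Inpp5b (0.964). The nearest gene was M6pr for Clec4d (0.968), Ggnbp2 for Clec5a (0.959), Pfdn1 for Clec4n (0.952), Dram1 for Clec12a (0.941), Ube2l6 for Clec4a1 (0.932), Pgap2 for Clec4a2 (0.924), Utp14a for Clec4b1 (0.874) and Zfas1 for Clec4a3 (0.863).

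Other genes near the members were also compared between genotypes. Within 1 Mb of a member, 41 other genes were tested, and 2.44%, 7.32% and 9.76% of them were called in DMEM, rmGM-CSF and 4T1 CM. On chromosome 6 without the members, 3.09%, 11.4% and 8.5% of 647 genes were called.

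Of 41 further C-type lectin genes, 15 passed the filter. In STAT5 cKO cells Mrc1, the mannose receptor, was lower in DMEM (-1.22 ± 0.21, edgeR adjusted p = 0.0018), under rmGM-CSF (-1.86 ± 0.21, adjusted p = 4.6e-06) and under 4T1 CM (-1.48 ± 0.20, adjusted p = 8.5e-05). Under rmGM-CSF the galactose-type lectins Mgl2 (-3.19 ± 0.31) and Clec10a (-2.31 ± 0.22) were lower too. Their means there were 0.346 CPM in STAT5 cKO against 3.17 CPM in STAT5 fl/fl for Mgl2, which was scarce, and 4.81 against 23.7 CPM for Clec10a. For these 2 genes the response to rmGM-CSF differed between genotypes, by -2.55 ± 0.52 (adjusted p = 0.00587) and -1.88 ± 0.35 (adjusted p = 0.00245), the direction seen for Clec7a and Clec4n. Cd93 differed in the other direction (0.43 ± 0.08, edgeR adjusted p = 0.00236). For this interaction edgeR thus called 1 of the 15 higher and 2 lower (0.884% and 2.22% of all genes). On the higher side in STAT5 cKO were Ly75 (1.64 ± 0.41) and Thbd (1.38 ± 0.24) under rmGM-CSF, and Olr1, the oxidized LDL receptor (1.53 ± 0.24), and Thbd (1.17 ± 0.12) under 4T1 CM. Ly75 was scarce as well, with means of 2.76 CPM in STAT5 cKO and 0.86 CPM in STAT5 fl/fl under rmGM-CSF. Of the 15, edgeR called 0 higher and 2 lower in DMEM (0.938% and 1.55% of all genes), 2 higher and 4 lower under rmGM-CSF (3.57% and 6.24%), and 2 higher and 2 lower under 4T1 CM (4.13% and 3.57%). DESeq2 called 5, 9 and 5 of them.

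Of 20 genes of adaptors, kinases and phosphatases next to the receptors, all tested, edgeR called 0 higher and 1 lower in STAT5 cKO in DMEM (0.938% and 1.55% of all genes), 0 and 3 under rmGM-CSF (3.57% and 6.24%), and 2 and 2 under 4T1 CM (4.13% and 3.57%). DESeq2 called 1, 7 and 5 of them. In the edgeR fit Fcer1g, Tyrobp and Syk were not among those called. Prkcd, the kinase that phosphorylates CARD9, was lower in STAT5 cKO under rmGM-CSF (-0.80 ± 0.06, edgeR adjusted p = 5.4e-08) and 4T1 CM (-0.39 ± 0.06, adjusted p = 0.00046). Lcp2, which encodes the adaptor SLP-76, was lower under rmGM-CSF (-0.62 ± 0.11). Blnk was lower in DMEM (-0.41 ± 0.08) and higher under 4T1 CM (0.41 ± 0.08), where Ptpn6 was also higher (0.26 ± 0.06). Of 22 genes of the CARD9 complex, NF-kB and NFAT, 0 were called in DMEM by edgeR (9 at an unadjusted p under 0.05, and 2 called by DESeq2), 3 were higher and 6 lower under rmGM-CSF (3.57% and 6.24% of all genes), and 2 were higher and 1 lower under 4T1 CM (4.13% and 3.57%). Malt1 (-1.28 ± 0.11), Traf6 (-0.92 ± 0.07) and Rel (-0.61 ± 0.08) were lower in STAT5 cKO under rmGM-CSF. Nfatc2 (0.59 ± 0.10), Map3k14 (0.53 ± 0.10) and Ikbkg (0.31 ± 0.06) were higher there.

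Of 18 genes that lectin receptors are known to induce, 13 were tested. rmGM-CSF raised 12 of the 13 in each genotype (15.9% of all genes in STAT5 fl/fl and 13.3% in STAT5 cKO), among them Il1b (log2 6.97 ± 0.25 in STAT5 fl/fl and 4.97 ± 0.19 in STAT5 cKO) and Cxcl2 (6.18 ± 0.16 and 5.86 ± 0.13). 4T1 CM raised 10 and lowered 1 in STAT5 fl/fl cells (19.2% and 18.2% of all genes), the chemokine gene Ccl3 (-1.96 ± 0.15). 4T1 CM raised 9 and lowered 3 in STAT5 cKO cells (19.3% and 18.4%), namely Ccl3 (-2.76 ± 0.13), Ccl4 (-1.70 ± 0.19) and Egr2 (-0.89 ± 0.09). In DMEM edgeR called 0 of the 13 between genotypes (3 at an unadjusted p under 0.05, and 2 called by DESeq2). Under rmGM-CSF (3.57% of all genes higher and 6.24% lower) 1 was higher in STAT5 cKO, Cxcl1 (0.62 ± 0.11), and 6 were lower, among them Ccl4 (-1.82 ± 0.14), Il1a (-1.73 ± 0.15), Il1b (-1.51 ± 0.16) and Ccl3 (-1.46 ± 0.10). Under 4T1 CM (4.13% higher and 3.57% lower) 3 were higher, Il10, Egr3 and Ptgs2, and 4 were lower, Egr2, Ccl4, Ccl3 and Cxcl2.

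Among 14 other receptors that pair with FcRgamma or DAP12, 9 were tested. Fcgr3, an Fc receptor for IgG, was lower in STAT5 cKO in DMEM (-0.61 ± 0.10), rmGM-CSF (-1.37 ± 0.10) and 4T1 CM (-0.91 ± 0.10). Cd300ld and Cd300lb were higher under rmGM-CSF (0.59 ± 0.10 and 0.55 ± 0.06), and Trem1 (1.18 ± 0.21) and Cd300ld (0.45 ± 0.10) under 4T1 CM. Of 12 myeloid transcription factor genes, all tested, Irf4 was lower in STAT5 cKO in DMEM (-1.03 ± 0.11) and under rmGM-CSF (-2.05 ± 0.12), where Bhlhe40, Irf8 and Irf5 were also lower (-0.92 ± 0.08, -0.76 ± 0.07 and -0.69 ± 0.06). Of these 12, 1 was called lower in DMEM (1.55% of all genes), 5 under rmGM-CSF (6.24%) and 3 under 4T1 CM (3.57%).

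With 2 STAT5 fl/fl mice, leaving out 1 of them left a lone library per control group, whose spread was then assumed to be that of the other groups. The main fit took the 15 libraries as independent, although each mouse gave 3. Its p-values measure the spread of libraries within groups, pooled over the 6 groups, and reach no further than these 5 mice.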

How the data were processed

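RNA-seq of BMDMs from 5 mice under 3 treatments gave 15 libraries. The authors made the deposited counts, whole numbers of fragments per gene without normalization, by trimming with Trimmomatic 0.33, aligning to GRCm38 with HISAT2 2.1.0 and counting with featureCounts 1.6.2, keeping pairs mapped at both ends on the strand of the gene (mapping quality of 10 or more). Reads of BALB/c mice were aligned to a C57BL/6J reference, so strain differences could lower a gene's counts in all groups alike. Of 55385 genes, 55144 matched a symbol. The header of the table names libraries under a further conditioned medium, which were not analysed here.

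Groups came from the library labels. The 13005 genes that exceeded a CPM of 1 in 2 or more libraries were scaled by edgeR's RLE method (RPKM from the same scaling and the exon length), and fitted over the 6 groups with the quasi-likelihood model of edgeR 4.0.16 in R 4.3.3. Contrasts were the 3 genotype, 6 treatment and 3 interaction comparisons, and p-values were adjusted over all genes. The SE is the log2 fold change over the root of the F statistic. The fit was tested on simulated data with 200 genes changed 2-fold among 12733, of which it called 83% for the genotype comparison under rmGM-CSF and 74.5% for the rmGM-CSF interaction. These shares give recovery and not the rate of false calls. The simulated libraries had no mouse effect, so they do not show how the repeated use of each mouse acts on the fit. Alternatives used TMM, no low-count filter, DESeq2 1.42.0, limma 3.58.1 and leaving out each mouse.

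Members and lists were chosen with earlier results of these data known. Besides the members, the text names Stat5a and Stat5b, called genes of the lists with the largest changes (at most 4 per direction), and the genes nearest to each member by Pearson's r of log2 CPM (prior count 2). Genes singled out beyond these (Fcer1g, Tyrobp and Syk) were chosen after their values were seen. A result for a gene of the transcription factor list is not reported here.

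The number in the labels was read as the mouse, which pairs its 3 libraries. Deviations of same-numbered libraries from their group means correlated at 0.0926 to 0.213 in STAT5 fl/fl, where the deviations of 2 mice mirror each other and give 3 distinct values, and at 0.0548 to 0.214 over 9 pairs in STAT5 cKO. Promoter windows came from RefSeq (GRCm38.p6) and shared 50-base stretches from GENCODE transcripts of GRCm38. A CPM of 1 corresponds to 16.0 to 22.9 counts.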

Additional observations from a re-analysis of the deposited data

Results flagged for a closer look

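Responses of 2 members differed between genotypes by the interaction term. The response of Clec4n to rmGM-CSF was lower in STAT5 cKO than in control cells, by a log2 value of -1.22 (edgeR adjusted p = 0.00429), and that of Clec7a by -0.96 (adjusted p = 2.2e-05). The change of Clec7a from rmGM-CSF to 4T1 CM differed by 0.70 (adjusted p = 0.00087), with a fall in STAT5 fl/fl cells (-0.64 ± 0.08) and a value of 0.06 ± 0.07 in STAT5 cKO cells. These 2 Clec7a terms share the rmGM-CSF libraries. No test of outlying libraries was run within groups of 2 or 3.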

How the results depend on the processing

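The members gave 42 called values, and 447 refits of them under the alternatives gave no reversal of direction. The call held in 389 and was lost in 58, among them 15 without mouse 113 and 12 without 112. The count of members called changed by over 1.5 times in these cases, which used fewer samples than the main fit, and the cause was not tested. Without the DMEM library of mouse 114, 2 members were called in place of 4 for 4T1 CM against DMEM in STAT5 cKO (Clec4d and Clec4b1 were lost). When only the libraries compared were fitted, 2 members were called in place of 4 for 4T1 CM against DMEM in STAT5 cKO and in place of 5 for the genotype difference under 4T1 CM (Clec4a1, Clec4d and Clec5a were lost, at adjusted p of 0.0183, 0.0249 and 0.0109). With each mouse left out in turn, the genotype difference gave 1 to 4 members in DMEM, 2 to 5 under rmGM-CSF and 1 to 6 under 4T1 CM, the lowest counts coming without 112 or 113. The same refits called 2 to 3 for 4T1 CM against DMEM and 2 to 4 for 4T1 CM against rmGM-CSF in STAT5 cKO, 1 to 2 for the rmGM-CSF interaction and 0 to 1 for the interaction of 4T1 CM against rmGM-CSF. Leaving out the 4T1 CM library of mouse 115 or the DMEM library of mouse 114 on its own was chosen after seeing the data.

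With the mouse as a replicate block, Clec4n joined Clec7a in the interaction of 4T1 CM against rmGM-CSF, so that 2 members were called in place of 1, and Clec4d was called lower under 4T1 CM than under rmGM-CSF in STAT5 cKO. In the treatment and interaction comparisons the block changed no other call of a member, and the 28 called values there held. It was not fitted to the genotype comparisons, since genotype does not vary within a mouse. For these, a limma fit that let libraries from the same animal be correlated kept the 14 calls. TMM in place of RLE changed no call. The scarcest member, Clec4b1, is limited by its 21 to 58 counts.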
